A study of Mus musculus with 1012 samples.

Results

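Whole-cell transcriptomes of 60 IBA cells and 60 untreated ASPCs (ASPC_Pre) were compared, 120 of the 1012 libraries of the series and of its 554 scRNA-seq libraries. Members were taken from the sample labels: every scRNA-seq library labelled IBA or ASPC_Pre in the batches that held both, 8_8 (15 IBA and 16 ASPC_Pre cells) and 9_1 (45 and 44). IBA is an immortalized mouse brown preadipocyte line made from stromal vascular cells of the interscapular brown fat of young male C57BL6/J mice. ASPCs are primary adipose stem and progenitor cells, described in the study's methods as isolated from subcutaneous fat of female C57BL/6J mice aged 7 to 10 weeks, and ASPC_Pre are those that had not received an adipogenic cocktail. Both were grown in high-glucose DMEM with 10% serum, trypsinized, sorted as single live cells into plates and sequenced by Smart-seq2, a full-length method that amplifies the polyadenylated RNA of a single lysed cell. IBA is a single line, and the number of mice behind the ASPCs of each batch was not given in the sources used here. The comparison therefore differs in depot, sex as described, immortalization and passage at once, and these cannot be told apart.

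Preadipocytes are fibroblast-like cells that can become lipid-storing adipocytes. Brown preadipocytes come from the same embryonic lineage as skeletal muscle and give rise to heat-producing adipocytes, whereas the progenitors of subcutaneous fat give rise mostly to white adipocytes and include Dpp4+ interstitial cells, Icam1+ committed preadipocytes and F3+ regulatory cells. Fat progenitors in tissue secrete collagens, elastic fibre components, growth factors and chemokines, and retain the HOX code of the body region from which they came.

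The libraries held 137125 to 2671609 counts (median 810766). Batch 8_8 was the shallower, with medians of 399889 counts in IBA and 345074 in ASPC_Pre against 974917 and 796342.5 in batch 9_1, and the number of genes detected ordered the states alike in each batch (medians 8423 and 7951 in 8_8, 9787 and 9613.5 in 9_1). After each cell was thinned to 100000 counts the medians were 7354 and 7283 in 8_8 and 7805 and 7909 in 9_1, so that the order of the states was not the same in both batches. The median mitochondrial share was 3.33% in IBA and 5.6% in ASPC_Pre in batch 8_8, and 9.18% and 3.64% in batch 9_1.

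The labels and the described sources were checked against the data. ASPC_Pre cells went against the sex given in the methods, and 1 library labelled IBA went against its label. Y-linked transcripts (Ddx3y, Eif2s3y, Kdm5d and Uty) were counted in 43 of the 60 ASPC_Pre cells, although the methods describe female donors, and 39 cells had more Y-linked than Xist counts. Xist, the noncoding RNA of the inactive X chromosome, was counted in 8 ASPC_Pre cells and in 1 IBA cell. Its level was 0 and 0.508 CPM (counts scaled to the library's total) in the IBA sums of 8_8 and 9_1, and 102.4 and 3.74 CPM in those of ASPC_Pre. Ddx3y stood at 64 and 24.8 CPM in IBA and 32.3 and 61.2 CPM in ASPC_Pre, with no call (log2 fold change -0.37, adjusted p = 0.791). Without the 39 cells, 21 ASPC_Pre cells are left, 15 of them with neither Xist nor Y-linked counts. In addition, 1 library labelled IBA, of batch 9_1, held counts of all 11 listed macrophage markers, with a summed level of 32200 CPM against at most 514 CPM in any other library. It had 24500 CPM of Lyz2, a lysozyme of myeloid cells, and no counts of Col1a1, Sparc, Ptn or Sfrp2. The comparison was therefore repeated without each of these sets of libraries.

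Counts were summed per state and batch, which gave 2 sums a state, and edgeR fitted the sums with batch in the model and tested each gene by its quasi-likelihood test. A gene was called at a Benjamini-Hochberg adjusted p below 0.05 over all genes tested and an absolute log2 fold change above 1, and positive values are higher in IBA. Nothing in the labels says whether the batches are separate cultures or preparations, so that p-values measure the spread between these sums. The fit had 1 residual degree of freedom a gene beside 6.031 prior degrees of freedom, so that most of each gene's spread estimate was borrowed from all genes tested. Of the 12636 genes tested, 551 (4.36%) were called, 418 (3.31%) higher in ASPC_Pre and 133 (1.05%) higher in IBA. The median log2 fold change of all genes tested was 0.01. The ratio of the called genes had the same sign in batch 8_8 and in batch 9_1 for all 551, which the call itself favours, and of all genes tested 4304 were positive and 4336 negative in both. Of the called genes 85 had no counts in IBA and 9 none in ASPC_Pre. Of the genes tested, 10575 passed the filter on low counts in both states, and 313 of these were called (219 higher in ASPC_Pre). Another 1034 passed through IBA alone and 1027 through ASPC_Pre alone, and for these the filter itself favoured a higher value in that state. Without the library with macrophage markers 256 genes were called as higher in ASPC_Pre and 78 as higher in IBA, and 331 of the 334 were among the 551. Without the 39 ASPC_Pre cells the numbers were 307 and 75, and 358 of these 382 were among the 551. Of the 100 genes that the naming rule took, Cxcl1, Ly6a, Cygb, Hoxa2, Hoxa10, Tbx5, Irx2, Foxf1, Col6a1, Spon2, Cnn1, Nkd1, H2-K1, Tapbp, Ifit3, Impact, Ndn, Cdkn1a, Mdm2, Aen, Ccng1, Cdc6 and Junb were not called without the library with macrophage markers. Ezr, Emx2, Mmp23, Dkk2 and Inhbb were not called without the 39 cells, nor were Cygb, Hoxa2, Hoxa10, Irx2, Col6a1, Spon2, Cnn1, Nkd1, H2-K1, Tapbp, Impact, Cdkn1a, Aen, Ccng1, Cdc6 and Junb.

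**Figure D1:**
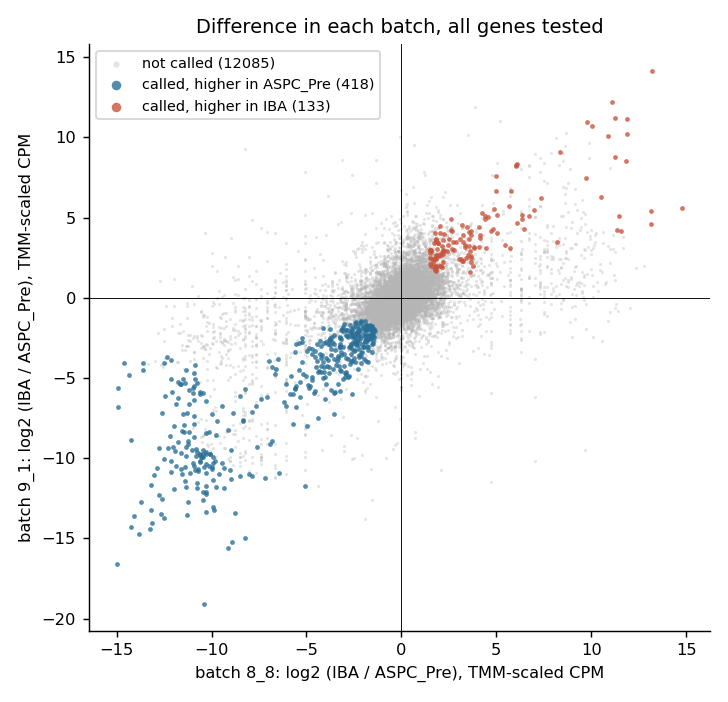
Each point is 1 of the 12636 genes tested, with the log2 ratio of IBA to ASPC_Pre (TMM-scaled CPM of the summed counts) in batch 8_8 on the x axis and in batch 9_1 on the y axis. The 418 genes called as higher in ASPC_Pre (blue) lie in the lower left and the 133 called as higher in IBA (red) in the upper right, and values beyond about 8 on either axis come mostly from genes with no counts in a sum and depend on the prior count.

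Of the 4 markers given for these cells, Ptn and Sfrp2 were those of IBA and Mfap5 and Cck those of ASPC_Pre. Ptn (ENSMUSG00000029838, chromosome 6, 36714929 to 36810220, GRCm38) encodes pleiotrophin, a secreted heparin-binding growth factor. It was at 229 CPM in the IBA sum of batch 8_8 and 1490 CPM in that of 9_1, against 0 and 26.3 CPM in ASPC_Pre. Counts were found in 54 of 60 IBA and 12 of 60 ASPC_Pre cells, and both IBA sums lay above both ASPC_Pre sums (log2 fold change 6.73, standard error 0.97, adjusted p = 0.018). Sfrp2 (ENSMUSG00000027996, chromosome 3, 83766321 to 83774316), a secreted modulator of WNT signalling, was at 148.6 and 1310 CPM in IBA and at 9.24 and 0.288 CPM in ASPC_Pre. The groups did not overlap and 51 IBA and 4 ASPC_Pre cells had counts, but the gene was not called (log2 fold change 7.51, standard error 2.07, adjusted p = 0.0892). Its within-batch log2 ratios were 3.87 in batch 8_8 and 11.88 in batch 9_1.

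Mfap5 (ENSMUSG00000030116, chromosome 6, 122505845 to 122529290), a glycoprotein of microfibrils, had no counts in any of the 60 IBA cells and was at 237 and 695 CPM in ASPC_Pre, with counts in 59 of 60 cells. With the IBA cells together set at a floor of 3 counts, it was at least 7600-fold lower in IBA (adjusted p = 0.00328). Cck (ENSMUSG00000032532, chromosome 9, 121489824 to 121495694), which encodes the peptide hormone cholecystokinin, was at 0.417 and 0 CPM in IBA and at 520 and 3910 CPM in ASPC_Pre. Only 2 IBA counts were found, so that the ratio of 62000 has a wide interval (17200 to 512000, exact, 95%, counting error only). It was called (adjusted p = 0.00495). After thinning, Ptn had counts in 54 IBA and 9 of 58 ASPC_Pre cells and Cck in 1 and 55. The 4 markers were chosen with results of these data known, so that their values are a description. Sfrp2 was the one that missed the threshold.

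Beyond the markers, the 10 genes with the largest called differences and a mean of at least 100 CPM in the higher state were taken for each direction, predicted genes left out. Among the latter, and picked after its values were seen, the processed pseudogene Gm13394 was at 354.34 and 474.56 CPM in IBA and at 0.973 and 0.74 CPM in ASPC_Pre (log2 fold change 8.82, adjusted p = 0.00303), and its reads may be shared with a parent gene. Ifi202b, an interferon-inducible gene of the p200 family, was at 76.7 and 151.96 CPM in IBA and had no counts in ASPC_Pre, at least 1350-fold higher in IBA (adjusted p = 0.0037). Tgfbi, an integrin-binding matrix protein induced by TGF-beta, was at 59.6 and 430 CPM in IBA and at 1.7 and 1.85 CPM in ASPC_Pre (log2 fold change 6.62, standard error 0.76, adjusted p = 0.0088). Ucp2, a mitochondrial carrier related to the thermogenic uncoupling protein, reached 173 and 471 CPM against 0.973 and 5.43 CPM (log2 fold change 6.58, standard error 0.5, adjusted p = 0.00368). It was counted in all 60 IBA cells and in 10 ASPC_Pre cells. The chemokines Ccl9 (log2 fold change 4.81) and Cxcl1 (3.81), the membrane-cytoskeleton linker Ezr (3.74), the replication licensing factor Cdt1 (3.89) and the chromatin remodeller Hells (3.44) followed. Hmga1b (4.26), a retrocopy of the chromatin protein gene Hmga1, was also among them, and reads of the pair may be split by the counting.

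The corresponding genes of ASPC_Pre had larger ratios, since most were not detected in IBA at all. Thy1, a surface glycoprotein of mesenchymal cells, was at 106.01 and 193.7 CPM in ASPC_Pre and had no counts in IBA, at least 2190-fold lower (adjusted p = 0.00368). Fhl1, a LIM-domain protein of muscle and fibroblasts, was even between the batches at 142.97 and 142.3 CPM and absent from the counts of IBA (at least 1720-fold lower, adjusted p = 0.00368). Plxdc2, a transmembrane protein, was at least 1710-fold and Rps4l, a copy of a ribosomal protein gene whose reads may be shared with its parent, at least 1110-fold lower in IBA. For 2 genes the ASPC_Pre sums were themselves far apart. Mmp3, the protease stromelysin, was at 4.13 CPM in batch 8_8 and 353 CPM in 9_1, and Ccl11, the eosinophil chemokine eotaxin, at 2.19 and 227 CPM. IBA had no counts of either, and both were called (adjusted p = 0.0037 and 0.00399).

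**Figure D2:**
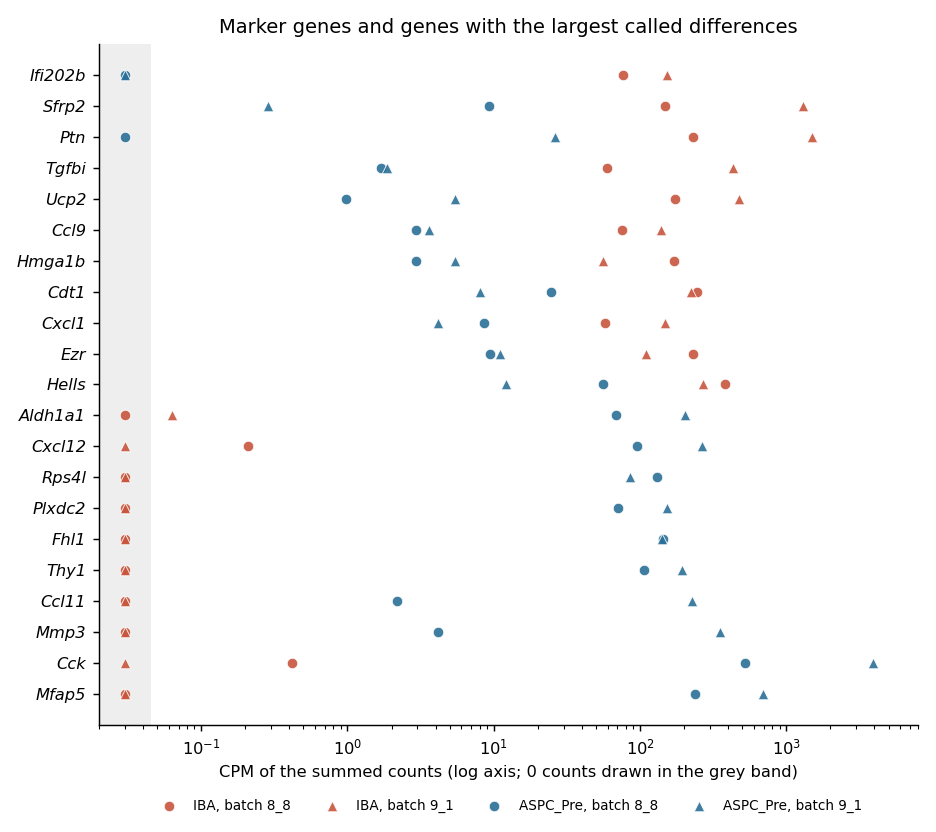
Levels in the 4 sums (CPM, log axis) of the 4 marker genes and of the genes with the largest called differences, in red for IBA and in blue for ASPC_Pre, with circles for batch 8_8 and triangles for batch 9_1. Sums with 0 counts are drawn in the grey band, and for every gene shown both sums of one state lie above both sums of the other.

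Over all genes tested, 3.31% were called as higher in ASPC_Pre and 1.05% as higher in IBA. The counts of each gene list below are to be set beside these shares. Of the gene lists examined, that of S phase genes, which replicate DNA, had the most members called as higher in IBA. Of 42 S phase genes, all tested and 41 of them passing the filter in both states, 14 were called as higher in IBA and none as higher in ASPC_Pre, against 1.05% of all genes tested. Their median log2 fold change was 2.3, 41 had a positive value, and 38 were positive in both batches. Ung, which removes uracil from DNA, was at 106.3 and 61.6 CPM in IBA and at 5.59 and 2.43 CPM in ASPC_Pre (log2 fold change 4.27, standard error 0.48, adjusted p = 0.00857). Cdc45, part of the replicative helicase, was at 203 and 169 CPM against 31.9 and 11.1 CPM (3.12, standard error 0.46, adjusted p = 0.0185). Cdc6, a loader of that helicase, was at 115.9 and 75 CPM against 25.5 and 3.78 CPM (3.06, standard error 0.61, adjusted p = 0.0439). In each the IBA sums lay above both ASPC_Pre sums, and the ratio between the batches was smaller in IBA than in ASPC_Pre. The helicase subunits Mcm2, Mcm3 and Mcm7 (2.47, 2.66 and 2.27) were called, while Mcm4, Mcm5 and Mcm6 had values of the same size (2.43, 2.9 and 2.52) with adjusted p between 0.0513 and 0.0592. Rrm2, a subunit of ribonucleotide reductase, was the exception with -0.56.

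The 54 genes of G2 and mitosis had a median log2 fold change of 1.7 with 49 positive. None was called by edgeR, with 28 at an unadjusted p below 0.05, and DESeq2 called 24 as higher in IBA. Mki67, the proliferation marker Ki-67, was at 341 and 201 CPM in IBA and at 251 and 11.8 CPM in ASPC_Pre (2.07, adjusted p = 0.216). The within-batch medians of the list were 0.37 in batch 8_8 and 3.18 in batch 9_1, and those of the S phase genes 1.4 and 3.25. Per cell, the summed level of the S phase genes was 5600 to 15700 CPM (median 9090) in the IBA cells of 8_8 and 1660 to 18400 (8150) in those of 9_1. In ASPC_Pre it was 422 to 9190 CPM (4350) and 333 to 3740 (933). The ASPC_Pre cells of the batches thus differed from each other, and cells of the states overlapped. The number of S phase genes called depended on the fit, from 1 without the batch term or without batch 9_1 to 37 without batch 8_8, with 31 by DESeq2, 6 when all states of both batches shared the estimate of the spread, and 8 without the library with macrophage markers and without the 39 ASPC_Pre cells. The median stayed positive in each.

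Because these genes moved together, their promoters were searched in RefSeq's sequences (GRCm38.p6) for the E2F site, the element through which E2F factors act on replication genes, written as TTTCCCGC, TTTCGCGC, TTTGCCGC or TTTGGCGC on either strand of the 250 bases before the start. Of the 14 called genes 13 had a promoter sequence and 7 held a match (53.8%), against 10 of 31 S phase genes tested that had one (32.3%) and 4.05% of all genes tested with a sequence. The 7 stretches are shown on the strand of the gene with the match in capitals.
Mcm7 (chr5:138172030-138172059, minus strand): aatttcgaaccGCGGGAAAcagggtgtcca
Uhrf1 (chr17:56304117-56304146, plus strand): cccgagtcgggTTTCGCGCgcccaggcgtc
Cdca7 (chr2:72476137-72476166, plus strand): tgcgtcccggcGCGGGAAAgccggtggccc
Pola1 (chrX:93632275-93632304, minus strand): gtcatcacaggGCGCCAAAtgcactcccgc
Dtl (chr1:191575545-191575574, minus strand): caatcagaaagcgtgacgtcagTTTGGCGC
Cdc6 (chr11:98908002-98908031, plus strand): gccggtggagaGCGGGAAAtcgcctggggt
Hells (chr19:38930917-38930946, plus strand): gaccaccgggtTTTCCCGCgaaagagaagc
A match is a letter pattern and not a measured site, and Ung, Cdc45, Mcm2, Mcm3, Nasp and Chaf1b held none in this window.

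Regulators of the cell cycle and targets of p53, the transcription factor that halts division after damage, were examined next. Among 26 genes of the CDK inhibitors, D and E cyclins and the RB-p53 axis, all tested, 3 were called as higher in ASPC_Pre and none in IBA. The shares over all genes tested were 3.31% and 1.05%. Of the 26 values 17 were positive and 9 negative (median 0.72). Cdkn1a, which encodes the CDK inhibitor p21, was at 180 and 402 CPM in IBA and at 457 and 1430 CPM in ASPC_Pre (log2 fold change -1.78, standard error 0.37, adjusted p = 0.0464). Mdm2, the ubiquitin ligase that degrades p53, was at 78.6 and 98.3 CPM against 239 and 695 CPM (-2.41, adjusted p = 0.0355). Ccnd2, the cyclin D2 gene, was at 217 and 92.1 CPM against 1310 and 2300 CPM (-3.81, adjusted p = 0.0238). Among the members without a call, E2f2 had a value of 3.09, Cdkn2a of 2.96 and Ccne2 of 2.25. Cdkn2a, the locus of p16 and p19Arf, was at 19 and 76.2 CPM in IBA and at 0 and 23.7 CPM in ASPC_Pre, and the sums of the states overlapped.

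Of 20 p53 targets tested, 18 of them through both states, 4 were called as higher in ASPC_Pre, against 3.31% of all genes tested, and none in IBA, with a median of -1.13. The number was 2 without the library with macrophage markers, 2 without the 39 ASPC_Pre cells, and 0 without the batch term or without batch 9_1. Trp53inp1 (-3.9, adjusted p = 0.0115), Ccng1 (-2.87, 0.0494), Aen (-2.16, 0.0415) and Phlda3 (-1.93, 0.0331) were the 4. Ccng1, the cyclin G1 gene, stood at 397 and 279 CPM in IBA and at 1230 and 3710 CPM in ASPC_Pre. Per cell the summed level of the targets was 338 to 5060 CPM over the IBA cells of both batches. In ASPC_Pre it was 1360 to 5370 CPM (median 2690) in batch 8_8 and 2580 to 12100 CPM (6010) in batch 9_1, so that ASPC_Pre had the lower level of p53 targets in the batch in which its S phase level was higher.

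**Figure D3:**
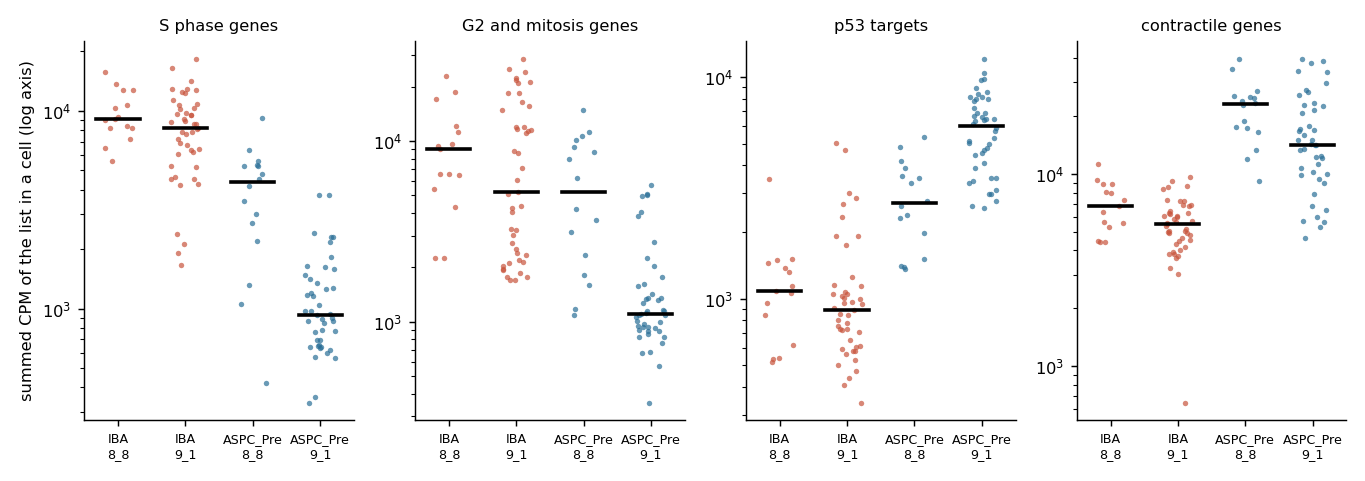
Each point is a cell, with the summed CPM of the members of a gene list on a log axis and the median of the state and batch as a black bar. The S phase level was highest in IBA (medians 9090 and 8150 CPM) and lowest in ASPC_Pre of batch 9_1 (933 CPM), and the p53 targets and the contractile genes had higher medians in ASPC_Pre than in IBA in both batches.

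Extracellular matrix genes were divided. Among 18 collagen genes tested the median was 0.11. The fibrillar collagen gene Col1a1 was not called, at 1230 and 1730 CPM in IBA and at 2470 and 1820 CPM in ASPC_Pre (log2 fold change -0.73, adjusted p = 0.317). Both of its ASPC_Pre sums lay above both IBA sums. Col6a1, a chain of the microfibrillar collagen VI, was called as higher in IBA, with 254 and 630 CPM against 82.2 and 77.5 CPM (2.14, standard error 0.44, adjusted p = 0.0458). Col12a1, a fibril-associated collagen, was called as higher in ASPC_Pre, with 41.1 and 88 CPM against 702 and 596 CPM (-3.61, standard error 0.45, adjusted p = 0.0113).

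Of 23 genes of elastic fibres and microfibrils 20 were tested, 17 through both states. Of these 7 were called as higher in ASPC_Pre, 1 as higher in IBA and 12 not at all (median -1.24, and -0.94 over the 17). Over all genes tested 3.31% were called as higher in ASPC_Pre and 1.05% as higher in IBA. Besides Mfap5, Mfap2 had no counts in IBA and was at least 122-fold lower there. Efemp1, encoding fibulin-3, was at 35.9 and 153.6 CPM in IBA and at 437 and 998 CPM in ASPC_Pre (-3.34, adjusted p = 0.00982), and Fbln5, encoding fibulin-5, at 21.9 and 48.7 CPM against 166 and 169 CPM (-2.54, adjusted p = 0.0277). Lox, Loxl3 and Ltbp2 were the others (-2.54, -2.17 and -1.95). Loxl4, another lysyl oxidase that cross-links matrix, was higher in IBA with 97.3 and 66.5 CPM against 9.48 and 11.3 CPM (2.75, adjusted p = 0.0296), so that members of this enzyme family differed in opposite directions.

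Of 28 proteoglycan and matricellular genes tested, 8 were called as higher in ASPC_Pre and Tgfbi as higher in IBA, against 3.31% and 1.05% of all genes tested. The median was -1.66 (-1.24 over the 22 that passed the filter in both states). Thbs1, encoding thrombospondin-1, was at 572 and 185 CPM in IBA and at 8150 and 6350 CPM in ASPC_Pre (-4.66, standard error 0.54, adjusted p = 0.0089). Prelp, a small leucine-rich proteoglycan, was at 0 and 0.54 CPM against 55.9 and 736 CPM (-10.68, adjusted p = 0.00303). Spon2 followed at -4.99. Matrix proteases and their inhibitors had a median of -2.61, and of -1.82 over the 19 of 22 that passed in both states. Of the 22, 8 were called, all higher in ASPC_Pre, against 3.31% of all genes tested. Mmp2, the gelatinase of fibroblasts, was at 3.54 and 8.87 CPM in IBA and at 99 and 331 CPM in ASPC_Pre (-5.23, adjusted p = 0.0037). Mmp23 (-3.41) and Ctsk, the collagen-degrading cathepsin K (-3.37), were also called. Without the batch term 1, 4 and 3 genes of the elastic fibre, proteoglycan and protease lists were called as higher in ASPC_Pre, and 1, 0 and 3 without batch 9_1. Without the library with macrophage markers they were 5, 5 and 8.

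Contractile genes, which mark smooth muscle and activated fibroblasts, were higher in ASPC_Pre in 8 of 20 tested and in IBA in none (median -1.78, and -1.62 over the 16 that passed the filter in both states, 6 of them called). Over all genes tested 3.31% were called as higher in ASPC_Pre. Acta2, alpha smooth muscle actin, was at 493 and 244 CPM in IBA and at 6880 and 3910 CPM in ASPC_Pre (log2 fold change -4.09, standard error 0.42, adjusted p = 0.00564). Tagln, encoding transgelin, was at 3.96 and 2.29 CPM against 83.9 and 110 CPM (-5.23, adjusted p = 0.00651), and Cnn1, encoding calponin, at 5.42 and 2.38 CPM against 58.4 and 306 CPM (-5.51, adjusted p = 0.0325). Lmod1, an actin nucleator of smooth muscle, had 2 counts in IBA, a ratio of 844 (233 to 6980, exact 95% interval). In these genes no sum of IBA reached a sum of ASPC_Pre, and all but 2 of the 20 members were negative in both batches. The 8 markers of mural cells, which also contract, summed to 122 and 53.6 CPM in IBA and to 13.1 and 54.7 CPM in ASPC_Pre. Kcnj8 and Higd1b were at 0 in both states, Ndufa4l2 was the single one called of 5 tested (-6.71, adjusted p = 0.0331), and Cspg4 was at 103.2 and 32.7 CPM in IBA against 1.7 and 4.6 CPM (3.95, adjusted p = 0.0505). Their part in the contractile result was not tested. Of the contractile genes 5 were called without the library with macrophage markers, 5 without the batch term and 1 without batch 9_1.
The CArG box, the element bound by serum response factor in contractile genes, was searched in the same way, and 2 of the 7 called genes with a promoter sequence held it (28.6%), against 4 of 18 members tested (22.2%) and 1.38% of all genes tested. They are shown on the strand of the gene, with the box in capitals.
Myl9 (chr2:156775293-156775322, plus strand): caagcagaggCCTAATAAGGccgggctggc
Cnn2 (chr10:79988534-79988563, plus strand): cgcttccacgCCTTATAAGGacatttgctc
Myl9, a regulatory myosin light chain, had a log2 fold change of -3.85, and Cnn2, a calponin of non-muscle cells, of -1.78.

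**Figure D4:**
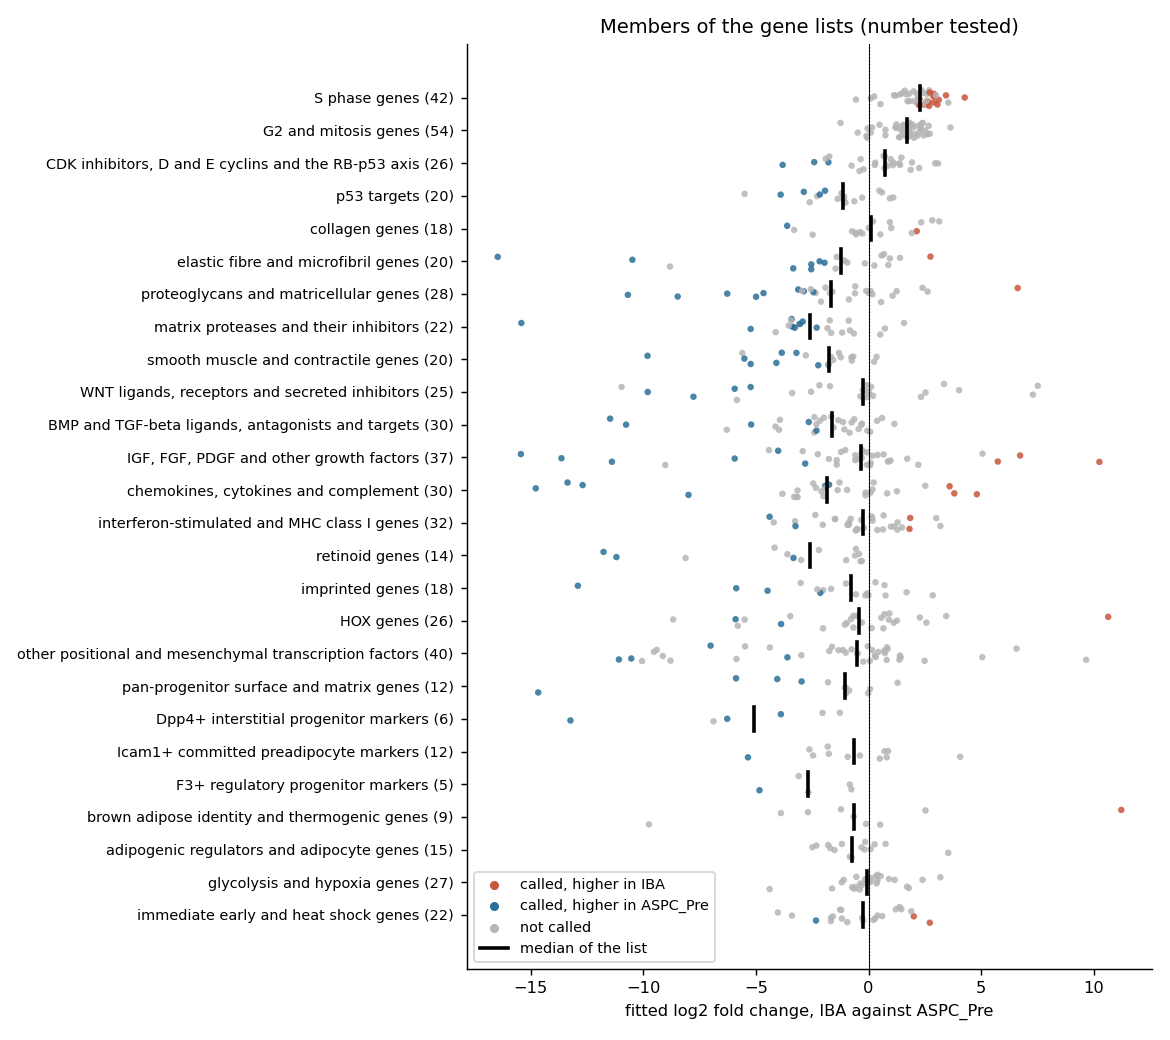
Fitted log2 fold change (positive values higher in IBA) of the members tested of 26 gene lists, in red where called as higher in IBA, in blue where called as higher in ASPC_Pre and in grey where not called, with the median of each list as a black bar and that of all genes tested (0.01) as a dotted line. S phase genes and genes of G2 and mitosis lie mostly right of zero (medians 2.3 and 1.7), the matrix protease and contractile lists mostly left of it (-2.61 and -1.78). For members that passed the filter through 1 state alone, 8 of 14 in the retinoid list, the filter favoured that state's side without fixing it. Values beyond about 8 depend on the prior count, since the lower state has few or no counts.

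Among the secreted signals, 25 of 37 WNT genes were tested, only 9 of them through both states. There were 4 calls, all higher in ASPC_Pre, against 4.36% of all genes tested. All 4 genes had passed the filter through ASPC_Pre alone, which favoured that direction. Wnt5a, a ligand of noncanonical WNT signalling, was at 2.08 and 1.37 CPM in IBA and at 111.1 and 73.9 CPM in ASPC_Pre (log2 fold change -5.94, standard error 0.5, adjusted p = 0.0037). The secreted inhibitors Sfrp1 (0 and 5.24 CPM against 230 and 506 CPM, -7.77, adjusted p = 0.00895) and Dkk2 (0.834 and 5.94 CPM against 43.8 and 150 CPM, -5.23, adjusted p = 0.00495) were higher in ASPC_Pre, whereas the value of Sfrp2, without a call, was positive. Nkd1, an intracellular antagonist of the pathway, had no counts in IBA and was at least 76.1-fold lower there (adjusted p = 0.0498).

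Among 30 BMP and TGF-beta genes tested, 5 were called, all higher in ASPC_Pre, against 3.31% of all genes tested. Of the 30, 26 had negative values (median -1.6, and -1.07 over the 23 that passed in both states, 3 of them called). Fst, encoding the activin antagonist follistatin, was at 3.33 and 6.2 CPM in IBA and at 86.8 and 239 CPM in ASPC_Pre (-5.21, adjusted p = 0.00399). Inhbb, a subunit of activin B (-2.65, adjusted p = 0.0287), and the ligand Tgfb3 (-2.31, adjusted p = 0.0309) were higher in the same cells, so that an antagonist and a ligand of activin signalling were both higher in ASPC_Pre. The receptor Bmpr1b and the ligand Gdf6 had no counts in IBA (at least 242-fold and 150-fold lower).

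Of 37 other growth factor genes tested, 6 were called as higher in ASPC_Pre and 3 in IBA, against 3.31% and 1.05% of all genes tested. Of the 28 that passed the filter in both states 4 were called. The other called genes passed through 1 state alone, which favoured their direction. Fgf2 was at 15 and 3.05 CPM in IBA and at 285 and 457 CPM in ASPC_Pre (-5.94, standard error 0.85, adjusted p = 0.0179). Pdgfd and Igfbp5 had no counts in IBA (at least 1070-fold and 228-fold lower). Besides Ptn, IBA had higher levels of Angpt2, the vascular factor angiopoietin-2 (5.74, adjusted p = 0.0269), and of Areg, the EGF receptor ligand amphiregulin, which had no counts in ASPC_Pre (at least 93.1-fold higher, adjusted p = 0.0438).

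Among 30 chemokine, cytokine and complement genes tested, 6 were called as higher in ASPC_Pre and 3 in IBA, against 3.31% and 1.05% of all genes tested. The median was -1.84, and -0.54 over the 20 that passed in both states, 4 of them called. Cxcl12, which retains haematopoietic cells, was at 0.208 and 0 CPM in IBA and at 96 and 266 CPM in ASPC_Pre, a ratio of 8760 (1570 to 346000, exact 95% interval) that rests on 1 IBA count. Cxcl14 had no counts in IBA (at least 886-fold lower), and Serping1, the C1 inhibitor, was at 0 and 0.572 CPM against 14.1 and 115.5 CPM (-7.99, adjusted p = 0.00399). In IBA, Ccl9 was at 75 and 139 CPM against 2.92 and 3.62 CPM (4.81, adjusted p = 0.00503). Cxcl1, a neutrophil attractant, was at 57.5 and 148.1 CPM against 8.51 and 4.15 CPM (3.81, adjusted p = 0.0325), and Cx3cl1 was also called (3.6). Among 32 interferon and MHC class I genes tested, 2 were called as higher in IBA and 2 as higher in ASPC_Pre, against 1.05% and 3.31% of all genes tested. H2-K1 and the peptide loading factor Tapbp were higher in IBA (1.82 and 1.85, adjusted p = 0.0393 and 0.0426), and the interferon-induced Ifit3 and Bst2 higher in ASPC_Pre (-4.39 and -3.24). Without the library with macrophage markers, H2-K1 had a log2 fold change of 1.82 (adjusted p = 0.0536) and Tapbp of 1.84 (adjusted p = 0.0567).

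The retinoid list had 14 of 19 genes tested, 8 of them through ASPC_Pre alone, which favoured negative values for those 8. Of the 14, 3 were called, all higher in ASPC_Pre, against 3.31% of all genes tested. Over the 6 that passed in both states the median was -0.58 and 1, Dhrs3, was called. Aldh1a1, an enzyme that makes retinoic acid, was at 0 and 0.0636 CPM in IBA and at 68.3 and 201 CPM in ASPC_Pre. The ratio was 3300 (914 to 27300, exact 95% interval, adjusted p = 0.00303). Aldh1a3, a related enzyme, had 1 count in IBA and was at 60.5 and 71.3 CPM in ASPC_Pre, a ratio of 2530 (453 to 99900), and Dhrs3, which turns retinal back into retinol, was called as well (-3.33, adjusted p = 0.0158). The receptors Rara, Rarg and Rxra were close to even (-0.56, -0.29 and -0.6) and not called.

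Of 18 imprinted genes tested, 4 were called and all were higher in ASPC_Pre, against 3.31% of all genes tested. Of the 4, 2 were among the 12 that passed the filter in both states. Peg3, expressed from the paternal allele, was at 98.7 and 47.1 CPM in ASPC_Pre and had no counts in IBA (at least 659-fold lower, adjusted p = 0.00399). Ndn, another paternally expressed gene, was at 0 and 15.7 CPM against 187 and 226 CPM (-5.87, adjusted p = 0.0497). Rian, a noncoding RNA of the maternal chromosome 12 cluster, was at 7.09 and 4.77 CPM against 103.1 and 122.1 CPM (-4.48, adjusted p = 0.00706), and Impact was called at -2.14. H19 had no counts in IBA and 85 in ASPC_Pre over all cells, and Igf2 had 13 and 11 counts, and neither entered the test.

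Among genes of positional identity, most of those called had passed the filter through 1 state alone, which favoured their direction. Zic1 (ENSMUSG00000032368, chromosome 9, 91358058 to 91365810), a transcription factor that marks brown preadipocytes, was at 19.4 and 19.6 CPM in IBA and had no counts in ASPC_Pre. It was counted in 46 of 60 IBA cells, passed through IBA alone and was at least 186-fold higher there (adjusted p = 0.0269). Of 35 HOX genes 26 were tested and 3 were called, against 4.36% of all genes tested. Of these only Hoxc10 was among the 16 that passed in both states, whose median was -0.07, while Hoxa2 passed through IBA alone and Hoxa10 through ASPC_Pre alone. Hoxa2, of an anterior group, was at 8.55 and 14.1 CPM in IBA and had no counts in ASPC_Pre (at least 126.8-fold higher in IBA, adjusted p = 0.0447). The posterior Hoxc10 was at 5.84 and 4.89 CPM in IBA and at 78 and 61.3 CPM in ASPC_Pre (log2 fold change -3.88, standard error 0.48, adjusted p = 0.0105), and Hoxa10 at 0 and 2.83 CPM against 93.4 and 54.9 CPM (-5.9, adjusted p = 0.0357). Between these groups lay members with small differences, such as Hoxb7 (0.66), Hoxc6 (-0.67) and Hoxc9 (-0.77). Reads were counted without regard to strand, so that the antisense transcripts of the HOX clusters cannot be told apart from these genes.

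Of 40 other positional and mesenchymal transcription factors tested, 4 were called, all higher in ASPC_Pre, against 3.31% of all genes tested. Only Emx2 was among the 24 that passed in both states (median 0.22), and Tbx5, Irx2 and Foxf1 passed through ASPC_Pre alone. Emx2 was at 4.38 and 8.2 CPM in IBA and at 85.8 and 51.6 CPM in ASPC_Pre (-3.6, adjusted p = 0.0232). Tbx5, a factor of the forelimb and heart, and Irx2 had no counts in IBA (at least 186-fold and 126-fold lower). Foxf1, counted 3 times in IBA, had a ratio of 105.8 (35.8 to 517, exact 95% interval, adjusted p = 0.0494). Without the library with macrophage markers 1 of these factors and 1 HOX gene, both higher in ASPC_Pre, were called, and without the 39 ASPC_Pre cells 2 and 1.

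Of 14 pan-progenitor genes 12 were tested and 4 were called, all higher in ASPC_Pre, against 3.31% of all genes tested. Besides Thy1 these were Eng, the TGF-beta co-receptor endoglin (4.59 and 2.38 CPM in IBA against 221 and 131 CPM in ASPC_Pre, log2 fold change -5.88, adjusted p = 0.00368), Dcn, encoding decorin (-4.05, adjusted p = 0.0128), and Ly6a, encoding Sca-1 (26.3 and 262 CPM against 418 and 806 CPM, -2.97, adjusted p = 0.0456). Thy1 and Dcn passed the filter through ASPC_Pre alone, which favoured their direction, and 2 of the 10 that passed in both states were called. Pdgfra, the receptor used to define fat progenitors, was at 49.8 and 189 CPM in IBA and at 290.1 and 100.5 CPM in ASPC_Pre, and the states overlapped (-0.99, adjusted p = 0.523). Cd34, another surface marker, had a value of 1.29 (adjusted p = 0.195).

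Of 13 markers of Dpp4+ interstitial progenitors 6 were tested, 3 of them through ASPC_Pre alone, and 3 were called, all higher in ASPC_Pre. For this and the next progenitor lists, the share over all genes tested was 3.31%. Uchl1 (-3.89) passed in both states, whereas Sema3c (-6.27) and Cd55, which had no counts in IBA (at least 812-fold lower), passed through ASPC_Pre alone. Dpp4 itself was near the floor, with 44 counts over all ASPC_Pre cells and 0 in IBA, and did not enter the test. Of 12 Icam1+ preadipocyte markers tested only Icam1 was called, at 0 and 2.8 CPM in IBA against 14.1 and 61.2 CPM (-5.35, adjusted p = 0.0287). Icam1 passed the filter through ASPC_Pre alone, and none of the 8 that passed in both states was called. Pparg, the central regulator of fat cell formation, was at 95 and 33.9 CPM in IBA and at 66.9 and 12.2 CPM in ASPC_Pre (0.81, adjusted p = 0.318). It was higher in IBA within each batch, yet the batches differed more than the states. Cygb was the single F3+ progenitor marker called of 5 tested (-4.84).

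None of 15 adipogenic regulators and adipocyte genes tested was called by edgeR, with 5 at an unadjusted p below 0.05, and DESeq2 called 2 as higher in ASPC_Pre and 1 in IBA. Adipoq, Plin1, Lep and Cidec were at or near 0 in all 4 sums. Of 24 brown adipose genes 9 were tested and Zic1 was the single one called, against 4.36% of all genes tested. Prdm16, a coregulator of the brown fat programme, was at 0.625 and 1.4 CPM in IBA and at 14.1 and 2.63 CPM in ASPC_Pre (-2.69, adjusted p = 0.282), and Ebf2, a brown preadipocyte factor, at 17.7 and 32.1 CPM against 55.4 and 43.6 CPM (-1.22, adjusted p = 0.195). Elovl3, Otop1 and Cpt1b had no counts in either state. Ucp1 was not analysed here.

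Of markers of other cell types, those of epithelial and endothelial cells were sparse. All 8 epithelial markers were at 0 in IBA and 5 of 8 in ASPC_Pre, and the endothelial genes Cdh5, Emcn and Tie1 were at 0 in both states. Sox10, the defining factor of Schwann cells, was also at 0 in both. The 7 Schwann cell markers together were at 129.65 and 120.57 CPM in IBA and at 151.26 and 156.67 CPM in ASPC_Pre, and none of the 4 tested was called. The summed level of the 10 endothelial markers was 24.2 and 15.4 CPM in IBA and 25 and 31.6 CPM in ASPC_Pre, and that of the 8 mesothelial markers 19.2 and 8.49 CPM against 162 and 42.6 CPM. Tek, the receptor of the angiopoietins (at least 167-fold lower in IBA, adjusted p = 0.0287), and Krt19, a keratin also found in mesothelium (-3.95, adjusted p = 0.0187), were called, both higher in ASPC_Pre. Krt19 alone was at 162 and 36 CPM in ASPC_Pre, and so made up most of the mesothelial level there. It was counted in 44 of 60 ASPC_Pre cells, while the mesothelial factors Wt1 and Bnc1 had no counts there. The 11 macrophage markers were at 25.9 CPM in the IBA sum of batch 8_8, at 615 CPM in that of 9_1, which holds the library described above, and at 51.3 and 55 CPM in ASPC_Pre. Of 22 immediate early and heat shock genes, which respond to dissociation, Junb and Egr1 were higher in IBA (2.01 and 2.72) and Hspb1 higher in ASPC_Pre (-2.33). The shares over all genes tested were 1.05% and 3.31%.

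The same states were sampled by Live-seq, in which cytoplasm is drawn out of a living cell with a fluidic probe and amplified by a modified Smart-seq2 with more cycles, in 31 IBA and 61 ASPC_Pre samples of batches 8_8 and 9_4. These samples are other cells and were fitted in the same way. Of 11734 genes tested, 14 were called (0.119%), 11 higher in ASPC_Pre and 3 in IBA. The difference between the techniques was itself tested as an interaction over 12636 genes: edgeR found none at an adjusted p below 0.05 (lowest 0.988) and 220 at an unadjusted p below 0.05. Of the 551 genes called in whole cells 473 could be fitted in Live-seq, and 457 (96.6%) had the same direction there, against 67.5% of the 11723 genes fitted in both. The median log2 fold change was 4.94 in Live-seq and 3.26 in whole cells for the 132 higher in IBA, -3.75 and -3.71 for the 341 higher in ASPC_Pre, and 0.41 and 0.04 for all genes fitted in both.

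Mfap5 was at 0 and 0.127 CPM in the Live-seq sums of IBA and at 460 and 891 CPM in those of ASPC_Pre (adjusted p = 0.0132), and Cck at 0 and 0 CPM against 150.6 and 3440 CPM (adjusted p = 0.0132). Sfrp2, not called in whole cells, was called in Live-seq, with 177 and 1170 CPM in IBA and no counts in ASPC_Pre (adjusted p = 0.0187). Tgfbi, Fhl1, Aldh1a1 and Cxcl12 were likewise called with both techniques, whereas Ptn was not called in Live-seq (log2 fold change 7.1, adjusted p = 0.184). The exceptions in direction were 16 genes, among them Junb (-0.5 in Live-seq), Bst2 (0.06), Ctsk (1.21) and Inhbb (0.88). None of these 4 was called in Live-seq.

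**Figure D5:**
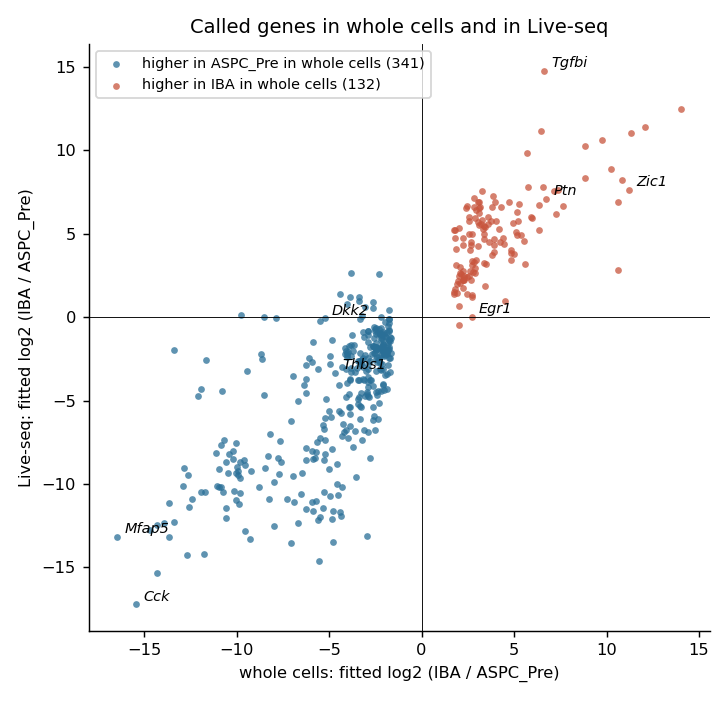
Fitted log2 fold change in whole cells (x axis) and in Live-seq (y axis) of the 473 called genes that could be fitted with both techniques, blue where higher in ASPC_Pre and red where higher in IBA in whole cells. All but 16 lie in the lower left or upper right quadrant, with Dkk2 and Egr1 close to 0 in Live-seq, and large values depend on the prior count.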

How the data were processed

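Whole cells were processed by Smart-seq2 and Live-seq samples by a modified version with more amplification cycles, and both were sequenced with 75-base reads. The authors demultiplexed with bcl2fastq 2.19.1, aligned with STAR 2.6.1c to mm10 and counted reads per gene without regard to strand with HTSeq and Ensembl release 87. The deposited values are raw read counts per gene and cell, with no molecular identifiers, so intervals and floors cover counting error only. Of 1012 columns, 366 were not used. Gene positions come from GENCODE release vM21 (GRCm38).

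Before summing, 84 ribosomal protein genes and 20 genes found by the study in its negative controls were removed, and the other counts were added up per state and batch. CPM was scaled to the kept counts of each sum (36266629 in IBA and 28442718 in ASPC_Pre). A gene was tested if 2 or more counts were found in 15% or more of either state's cells, and edgeR's filter on the sums was applied. edgeR 4.0.16 (R 4.3.3; TMM, quasi-likelihood test, prior count 0.125, Benjamini-Hochberg adjustment) was fitted with batch as a block, checked on simulated data. The batch deviations of the IBA and ASPC_Pre sums correlated at 0.276 across genes, and the block follows the batch label. Folds against a state with no counts use a floor of 3 counts over its cells, and ratios resting on 1 to 3 counts have exact 95% intervals. Alternatives included DESeq2 1.42.0, other normalizations, filters and sample sets.

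Genes were named by rule: the 4 markers, the 10 largest called differences in each direction at a mean of at least 100 CPM in the higher state (predicted genes left out), the 4 largest called members of each list at 20 CPM or all where a list had fewer than 5, and a few fixed genes. Others were picked after their values were seen. The members and the gene lists were chosen with earlier results of these data known.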

Additional observations from a re-analysis of the deposited data

How the results depend on the processing

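All 14 alternatives kept more calls higher in ASPC_Pre than in IBA, and the median of all genes moved by at most 0.1 on the log2 scale. The number of called genes, 551 here (418 higher in ASPC_Pre and 133 in IBA), was 1650 by DESeq2 (1092 and 558), 1799 with no filter on low counts (1180 and 619), 1692 with all states of all 3 batches in the fit (1112 and 580) and, added after seeing the data, 334 without the library with macrophage markers (256 and 78). It was 162 without the replicate block of batches (132 and 30), all of them among the 551. With RLE size factors it was 379, with 83 higher in IBA, and without the cells that went against the sex of their source 382, with 75 higher in IBA. Leaving out a batch leaves 1 ASPC_Pre sum, so all whole-cell states of the remaining batches were fitted together, IBA of batch scRNA included, with the lone sum assumed to vary like the others, and the number was 119 without batch 9_1 and 2065 without batch 8_8 (84 to 1193 higher in ASPC_Pre and 35 to 872 in IBA). The share of calls higher in ASPC_Pre, 75.9% here, was 66.2% by DESeq2, 65.6% with no filter, 65.7% with all 3 batches and 57.8% without batch 8_8, and 81.5% without the replicate block, 80.4% without the cells against the sex of their source and 78.1% with RLE. Of the named genes' values, 1088 kept their direction and side of the threshold, 239 lost the call, 10 gained it and 3 reversed. Ddx3y was at 3.99 without the cells against the sex of their source. Those cells were picked by Y-linked counts, Ddx3y among them, so that this reversal was fixed by the selection. Without batch 9_1 Ddx3y was at 0.39 (-1.24 without 8_8), and Pdgfra was at 0.63 without batch 8_8 (-2.76 without 9_1). Mfap5, Cck, Fgf2, Ucp2, Cdt1, Hmga1b and Ccnd2 were called in all 14. The cause of the other shifts was not tested. With 2 sums a state, low genes and modest differences are limited by the spread between batches.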

Other observations

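Whole cells of the same line and of the same primary cells in other conditions were left out of the comparison, and their levels can be set beside it with no test. In 93 IBA cells of another batch, labelled scRNA, all 133 genes called as higher in IBA had a summed level above both ASPC_Pre sums, against 41.8% of all 12636 genes tested. Of the 418 called as higher in ASPC_Pre, 404 (96.7%) lay below both ASPC_Pre sums, against 33.5% of all genes. The called genes were chosen with these same ASPC_Pre sums, so that the counts are a description. The 14 exceptions included the matrix genes Fmod and Fbln5, the p53 targets Mdm2, Aen and Trp53inp1 and the interferon-induced Ifit3 and Bst2. Acta2 was at 2330 CPM in that batch, above the 493 and 244 CPM of the IBA sums compared here and below the 6880 and 3910 CPM of ASPC_Pre.

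In 35 ASPCs of batch 9_1 that had received the adipogenic cocktail (ASPC_Post), 388 of the 418 genes (92.8%) lay above both IBA sums, against 32% of all genes tested, and 132 of the 133 genes higher in IBA lay below both, against 44.6%. Here too the genes were chosen with the same IBA sums. Isyna1, an enzyme of inositol synthesis, was the exception among the latter. Acta2 was at 284 CPM in these cells, between the IBA sums. The ASPC_Post cells share their batch with ASPC_Pre cells of the comparison.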
